A study of Mus musculus with 12 samples.

Results

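The genes that set the gate between G1 and S phase were followed in newborn mouse testis: the D-type cyclins Ccnd1, Ccnd2 and Ccnd3, the CDK inhibitors Cdkn1a, Cdkn1b, Cdkn2a, Cdkn2b, Cdkn2c and Cdkn2d, and the retinoblastoma gene Rb1. They were chosen by gene symbol and are 10 of the 54532 genes in the count and FPKM tables, each found once. RNA came from 12 bulk libraries of sorted testis cells, 3 for each combination of cell type (germ or somatic) and treatment (saline or dex). The mice carried Tg(Pou5f1-EGFP)2Mnn, in which the Pou5f1 (OCT4) promoter drives GFP, so GFP+ cells were taken as germ cells and GFP- cells as somatic cells. Dexamethasone (dex), a synthetic agonist of the glucocorticoid receptor, or saline was given to the dam at E17.5 and E18.5 and to the pup at PN0, at 10 μg per g, and testes were taken at PN1. Each library held pooled testes of at least 2 litters dosed apart, and GFP- cells are a mixture of every unlabelled cell type of the testis.

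D-type cyclins bind the kinases CDK4 and CDK6, and these complexes phosphorylate the retinoblastoma protein, which otherwise holds E2F transcription factors inactive. The INK4 proteins (encoded by Cdkn2a, Cdkn2b, Cdkn2c and Cdkn2d) bind CDK4 and CDK6 and keep the cyclin out, whereas the CIP/KIP proteins (encoded by Cdkn1a, Cdkn1b and Cdkn1c) bind whole cyclin-CDK complexes, those with CDK2 included. In the perinatal testis, male germ cells (prospermatogonia) rest in mitotic arrest before they divide again after birth, while Sertoli cells, the nurse cells of the seminiferous cords, proliferate.

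Library totals lay between 18459692 and 25178477 counts, so that 3 counts, the limit that a count of 0 allows, correspond to 0.111 to 0.170 CPM (counts scaled to library size by the factors of edgeR). That limit covers counting error only. Replicates of a group correlated across genes at r = 0.994 to 0.996, and every pair of replicates differed by more than sampling noise. The summed CPM of 10 germ cell markers was 2673 to 2899 in germ libraries and 8.32 to 10.3 in somatic libraries, where Dppa3, one of the 10, was at 0 counts. The summed CPM of 8 Sertoli cell markers was 4037 to 4784 in somatic libraries and 35.1 to 63.2 in germ libraries. Of 11 glucocorticoid response genes tested with edgeR, 8 were called higher and 0 lower with dex in somatic cells (2.74% and 1.17% of all genes). In germ cells 2 were called higher and 1 lower (0.739% and 0.507%). Klf9 rose in both, by 1.27 ± 0.225 (SE) in log2 in somatic cells (Benjamini-Hochberg adjusted p = 0.0040). It rose by 1.08 ± 0.138 in germ cells (adjusted p = 0.0014), a call lost with limma on log2 FPKM. Tsc22d3 was the lower gene in germ cells, at -0.37 ± 0.0721 (adjusted p = 0.022).

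The D-type cyclins differed most in which of them each population carried. Levels are given first as FPKM, the count per length and depth, so that genes of unlike length can be set side by side. The data give 1 length per gene, from 1172 bases for Cdkn2a to 9409 for Ccnd2. Ranks and shares between genes depend on these lengths. Ccnd1 stood at 34.1, 34.9 and 35.4 FPKM in the 3 saline germ libraries and at 21.0, 23.8 and 24.8 FPKM in the 3 dex germ libraries. In somatic cells it stood at 0.614, 1.14 and 0.610 FPKM with saline and at 0.832, 0.782 and 0.697 FPKM with dex. All germ libraries were thus far above all somatic libraries, and every dex germ library was below every saline germ library. The high somatic value, saline somatic replicate 2, had 135 counts of Ccnd1, against 60 and 62 counts in the other saline somatic libraries.

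Ccnd2 was abundant in all 4 groups. It stood at 54.1, 47.3 and 53.3 FPKM in saline germ cells and at 46.2, 52.0 and 51.4 FPKM in dex germ cells. In somatic cells it stood at 52.6, 64.5 and 51.3 FPKM with saline and at 47.0, 43.5 and 46.3 FPKM with dex. In the order of group means (saline somatic, saline germ, dex germ, dex somatic) each group overlapped its neighbour.

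Ccnd3 was the D-type cyclin with the higher level in somatic cells. It stood at 38.1, 34.8 and 36.0 FPKM in saline somatic and at 44.2, 52.6 and 47.0 FPKM in dex somatic cells. In germ cells it stood at 15.4, 15.9 and 19.2 FPKM with saline and at 19.4, 19.3 and 21.3 FPKM with dex. The 4 groups did not overlap in FPKM, although the closest germ libraries, 19.2 and 19.3 FPKM, were nearly level.

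**Figure D1:**
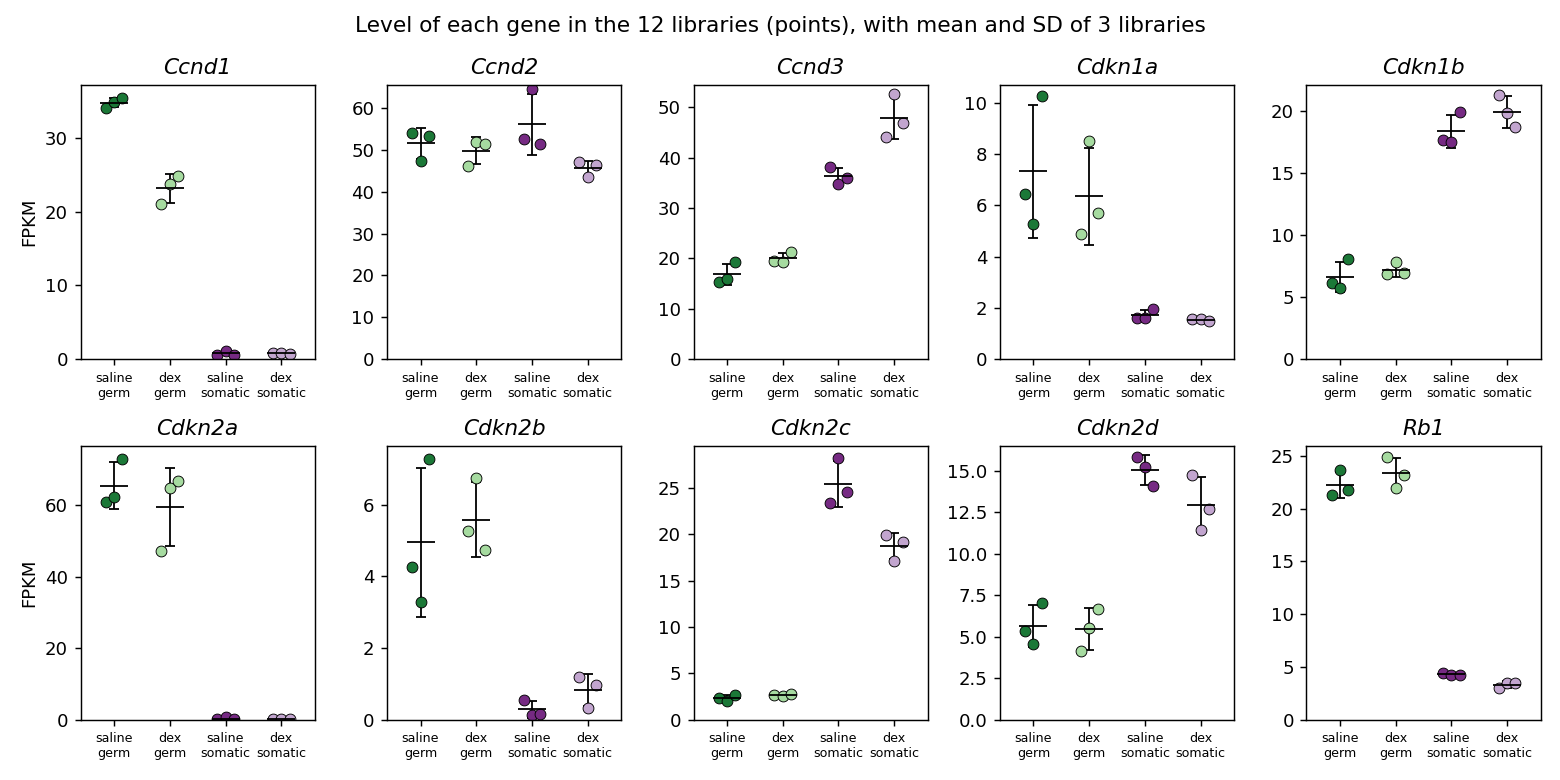
FPKM of each of the 10 genes in the 12 libraries, with a panel per gene and its own axis starting at 0. Points are libraries in the order of their replicate numbers, and the horizontal and vertical bars are the mean and SD of 3 libraries. Ccnd1, Cdkn1a, Cdkn2a, Cdkn2b and Rb1 are high in germ cells, Ccnd3, Cdkn1b, Cdkn2c and Cdkn2d in somatic cells, and Ccnd2 is at 43.5 to 64.5 FPKM in every library.

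Among the CIP/KIP genes, Cdkn1a, encoding the inhibitor p21 and best known as a p53 target, was at 6.44, 5.27 and 10.3 FPKM in saline germ cells and at 4.87, 8.50 and 5.71 FPKM in dex germ cells. It was at 1.59, 1.59 and 1.96 FPKM in saline somatic and at 1.56, 1.55 and 1.50 FPKM in dex somatic cells, below every germ library. Cdkn1b, encoding p27, had the opposite distribution. It was at 17.7, 17.6 and 19.9 FPKM in saline somatic and at 21.3, 19.8 and 18.7 FPKM in dex somatic cells, and between 5.72 and 8.05 FPKM in the 6 germ libraries.

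Cdkn2a was the member with the highest mean FPKM in germ cells in both treatments. This gene makes INK4A (p16) and, from another first exon and reading frame, ARF (p19), which stabilises p53. The counts are per gene and do not separate the products. Cdkn2a stood at 60.9, 62.3 and 73.0 FPKM in saline germ cells and at 47.1, 64.8 and 66.7 FPKM in dex germ cells, with dex germ replicate 1 below the other germ libraries. In somatic cells it had 3, 21 and 3 counts with saline and 4, 2 and 3 counts with dex, which is at or near the limit for all libraries except saline somatic replicate 2.

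Cdkn2b, encoding p15, is the neighbour of Cdkn2a on chromosome 4 (GRCm38), with 11645 bases between the genes. It had the same distribution at a lower level, with 4.27, 3.28 and 7.28 FPKM in saline germ cells and 5.25, 6.75 and 4.74 FPKM in dex germ cells. In somatic cells it had 16, 5 and 5 counts with saline and 31, 9 and 28 counts with dex, and these groups overlapped. Cdkn2c, encoding p18, and Cdkn2d, encoding p19 of the INK4 family, were the INK4 genes of the somatic libraries. Cdkn2c stood at 23.4, 28.3 and 24.6 FPKM in saline somatic and at 19.9, 17.2 and 19.2 FPKM in dex somatic cells, without overlap, and at 1.99 to 2.79 FPKM in germ cells. Cdkn2d stood at 15.8, 15.2 and 14.1 FPKM in saline somatic and at 14.7, 11.5 and 12.7 FPKM in dex somatic cells, and at 4.16 to 7.02 FPKM in germ cells.

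Rb1, whose protein is the main substrate of the cyclin D kinases, was at 21.2, 23.7 and 21.8 FPKM in saline germ cells and at 24.9, 22.0 and 23.2 FPKM in dex germ cells. It was at 4.46, 4.20 and 4.20 FPKM in saline somatic and at 2.99, 3.51 and 3.49 FPKM in dex somatic cells. The germ groups overlapped, and the somatic groups did not.

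The makeup of the families differed accordingly, given here as shares of summed FPKM and as a description. The 3 D-type cyclins summed to 86.6 to 108 FPKM in germ libraries and 87.9 to 100 FPKM in somatic libraries. Ccnd1 held 33.8% ± 1.56 of that sum in saline germ cells and 24.9% ± 0.584 in dex germ cells (SD, n = 3), and at most 1.14% in any somatic library. Ccnd3 held 39.1% ± 3.89 in saline somatic and 50.7% ± 3.20 in dex somatic cells. The 4 INK4 genes summed to 59.1 to 89.9 FPKM in germ libraries, of which Cdkn2a held 79.6% to 86.4%. As the Cdkn2a value covers INK4A and ARF together, this sum and share do not measure INK4 products alone. They summed to 29.0 to 44.4 FPKM in somatic libraries, of which Cdkn2c held 55.3% to 63.7% and Cdkn2d most of the rest.

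**Figure D2:**
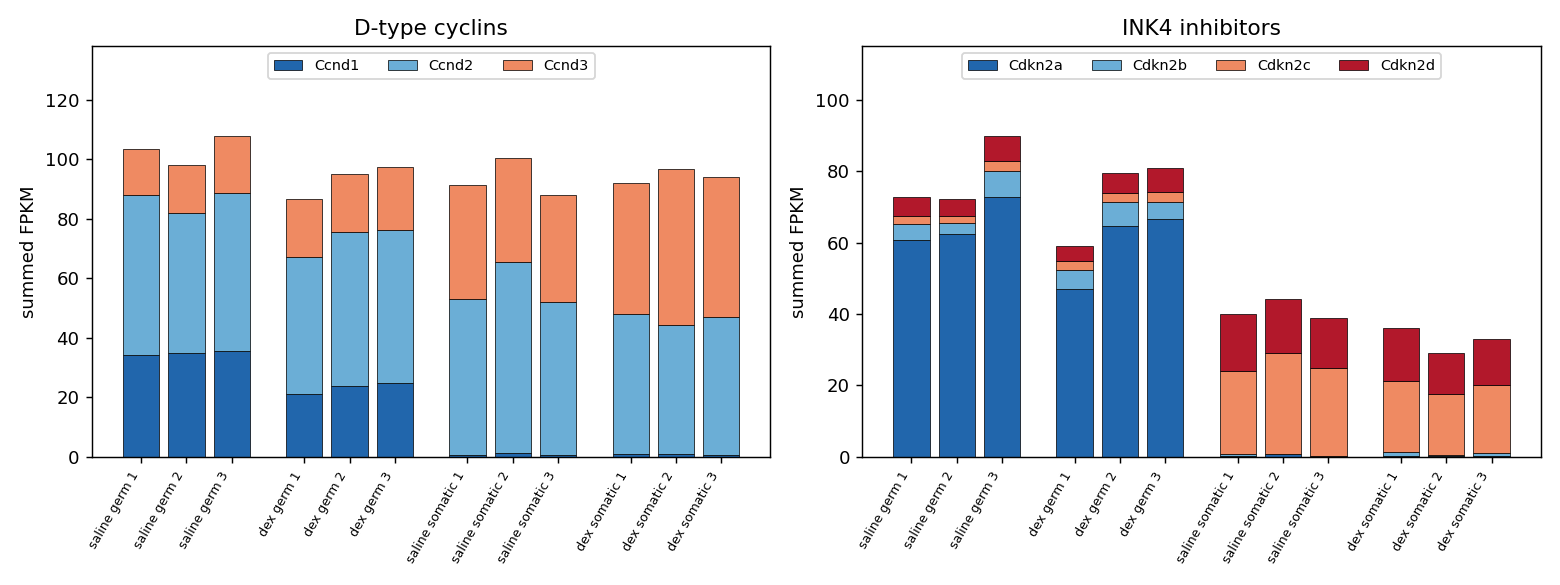
Summed FPKM of the D-type cyclins (left) and of the INK4 inhibitors (right) in each of the 12 libraries, stacked by gene. The D-type cyclin sums lie between 86.6 and 108 FPKM with Ccnd1 at most 1.14% of the sum in somatic libraries. The INK4 sum is mostly Cdkn2a, INK4A and ARF not separated, in germ and mostly Cdkn2c and Cdkn2d in somatic libraries.

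Promoter sequence is shown for the neighbours Cdkn2a and Cdkn2b, which are high in germ cells, and for Ccnd3 and Cdkn2c, the members called with dex in somatic cells that RefSeq's table covers, 250 bases before to 50 after a start, in build GRCm38.p6. Of the 10 members, 7 had entries, and Ccnd1, Ccnd2 and Rb1 had none. The windows of Cdkn1a, Cdkn1b and Cdkn2d and the downstream window of Cdkn2c are not printed. Sequences run 5′ to 3′ on the gene's strand. Capitals mark letters that match, on either strand, GGGCGG (a GC box), AGAACA (a half-site of the glucocorticoid receptor), TTTCCCGC or TTTGGCGC (E2F-type sites) or TGACGTCA (a cyclic AMP response element).
Cdkn2a, upstream start (first exon of ARF), chr4:89294570-89294869, minus strand: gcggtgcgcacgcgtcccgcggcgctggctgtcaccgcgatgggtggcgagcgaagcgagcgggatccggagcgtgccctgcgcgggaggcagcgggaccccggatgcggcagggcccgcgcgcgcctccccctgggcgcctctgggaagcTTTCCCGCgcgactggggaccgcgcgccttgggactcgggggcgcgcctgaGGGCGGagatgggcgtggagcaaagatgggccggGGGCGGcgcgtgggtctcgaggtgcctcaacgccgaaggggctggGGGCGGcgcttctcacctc
Cdkn2a, downstream start (first exon of INK4A), chr4:89282143-89282442, minus strand: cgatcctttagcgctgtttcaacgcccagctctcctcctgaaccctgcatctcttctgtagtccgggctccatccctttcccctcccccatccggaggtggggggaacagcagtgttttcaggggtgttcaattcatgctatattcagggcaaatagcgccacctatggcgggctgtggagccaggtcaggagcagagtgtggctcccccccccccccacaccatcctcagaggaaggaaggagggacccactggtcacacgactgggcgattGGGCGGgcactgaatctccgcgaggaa
Cdkn2b, chr4:89310983-89311282, minus strand: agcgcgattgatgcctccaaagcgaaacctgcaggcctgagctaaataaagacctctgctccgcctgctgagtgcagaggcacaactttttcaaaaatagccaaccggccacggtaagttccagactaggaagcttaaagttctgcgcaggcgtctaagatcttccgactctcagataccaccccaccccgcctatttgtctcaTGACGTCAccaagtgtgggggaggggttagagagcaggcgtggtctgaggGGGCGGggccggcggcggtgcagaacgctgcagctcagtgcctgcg
Cdkn2c, upstream start, chr4:109666707-109667006, minus strand: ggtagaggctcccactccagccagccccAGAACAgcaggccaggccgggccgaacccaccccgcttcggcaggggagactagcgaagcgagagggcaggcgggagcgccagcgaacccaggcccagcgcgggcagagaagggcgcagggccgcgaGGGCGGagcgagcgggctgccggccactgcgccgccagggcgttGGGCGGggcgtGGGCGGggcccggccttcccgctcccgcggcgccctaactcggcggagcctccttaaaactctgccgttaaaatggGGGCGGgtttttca
Ccnd3, upstream start, chr17:47504801-47505100, plus strand: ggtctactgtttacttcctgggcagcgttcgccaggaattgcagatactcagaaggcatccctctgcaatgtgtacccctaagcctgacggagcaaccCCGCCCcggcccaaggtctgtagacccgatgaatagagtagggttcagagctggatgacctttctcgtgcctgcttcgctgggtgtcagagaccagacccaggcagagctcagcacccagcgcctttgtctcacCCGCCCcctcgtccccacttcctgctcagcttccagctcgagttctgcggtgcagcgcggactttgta
Ccnd3, downstream start, chr17:47593217-47593516, plus strand: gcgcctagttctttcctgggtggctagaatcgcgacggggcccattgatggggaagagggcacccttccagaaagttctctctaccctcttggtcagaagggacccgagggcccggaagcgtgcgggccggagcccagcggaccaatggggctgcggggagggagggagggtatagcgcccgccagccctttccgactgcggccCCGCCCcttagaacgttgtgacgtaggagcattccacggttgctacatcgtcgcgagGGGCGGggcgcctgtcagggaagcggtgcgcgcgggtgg

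GC content was 77.0% in the upstream Cdkn2a window and 73.3% in the upstream Cdkn2c window, against a median of 52.7% over all 32851 promoters of the table. The upstream Cdkn2a window held 1 E2F-type site, which 1.56% of all promoters have, and 3 GC boxes, and 35.7% of all promoters have at least 1 GC box. The Cdkn2b window held 1 cyclic AMP response element, present in 1.79% of all promoters. The upstream Cdkn2c window held 4 GC boxes and 1 half-site of the glucocorticoid receptor, present in 19.0% of all promoters. The downstream Cdkn2c window, chr4:109665323-109665622, had a GC content of 44.0% and none of the motifs searched. Both Ccnd3 windows held 2 GC boxes and no half-site. The full palindrome of that receptor, which is the half-site, any 3 bases and its reverse complement, was in none of the 11 member windows and in 3 of all 32851. A match of letters is a description and no evidence of binding.

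The comparison of germ with somatic cells asks how these populations differ in the gate to S phase, and it was made within each treatment. edgeR's quasi-likelihood test called 9 of the 10 members in saline (Benjamini-Hochberg adjusted p at or under 0.05), where it called 76.5% of all genes tested, and 9 of the 10 in dex, where it called 76.3%. The groups did not overlap in CPM for 10 members in saline, where 79.7% of all genes had no overlap, and for 9 in dex, where 79.9% had none. The share of members called was thus not far from that of all genes. With dex, 5 members were higher in germ cells (40.5% of all genes) and 4 lower (35.7%), as in saline (39.8% and 36.7%). In bulk samples, fewer cells of a type and less RNA per cell cannot be told apart.

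The largest differences were those of Cdkn2a and Ccnd1. Summed over libraries, Cdkn2a had 4739 counts in saline germ and 27 in saline somatic cells, a ratio per library size of 176 (95% interval 121 to 267, exact, counting error only). With dex it had 4779 and 9 counts, a ratio of 433 (228 to 947). Of the 27 saline somatic counts, 21 came from replicate 2, and no difference is read between these ratios. The fitted log2 fold changes of 7.44 and 8.69 depend on the prior count at so few somatic counts, and the saline value was 8.92 without saline somatic replicate 2. Ccnd1 was 5.31 ± 0.201 (SE) higher in germ cells on the log2 scale in saline (adjusted p = 2.6e-10) and 4.80 ± 0.131 higher in dex (adjusted p = 1.3e-11).

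The other members higher in germ cells were Cdkn2b, at a log2 fold change of 3.99 ± 0.516 in saline and 2.64 ± 0.429 in dex, Rb1, at 2.25 ± 0.0914 and 2.70 ± 0.102, and Cdkn1a, at 1.97 ± 0.237 and 1.94 ± 0.225. Without saline somatic replicate 1, which had 16 of its 26 saline somatic counts, the saline value of Cdkn2b was 4.79. Of those lower in germ cells, Cdkn2c had the largest difference, at -3.56 ± 0.148 in saline and -2.93 ± 0.137 in dex. Cdkn1b was at -1.59 ± 0.127 and -1.58 ± 0.103, Cdkn2d at -1.54 ± 0.178 and -1.36 ± 0.204, and Ccnd3 at -1.23 ± 0.0900 and -1.37 ± 0.0848. Each of these 9 members kept its direction and its call in all alternatives in which it was tested. Ccnd2 was at -0.25 ± 0.107 in saline (adjusted p = 0.051, at the threshold) and at 0.02 ± 0.0787 in dex (adjusted p = 0.84). The saline value was called at -0.34 to -0.30 in 4 fits that left out 1 library (saline germ replicate 1 or 3, saline somatic replicate 1 or 3) and at -0.21 without a filter (adjusted p = 0.046). It was -0.17 and -0.11 without saline germ or saline somatic replicate 2, not called. The dex value was called at 0.20 with library totals (adjusted p = 0.034), so no direction is given for Ccnd2.

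**Figure D3:**
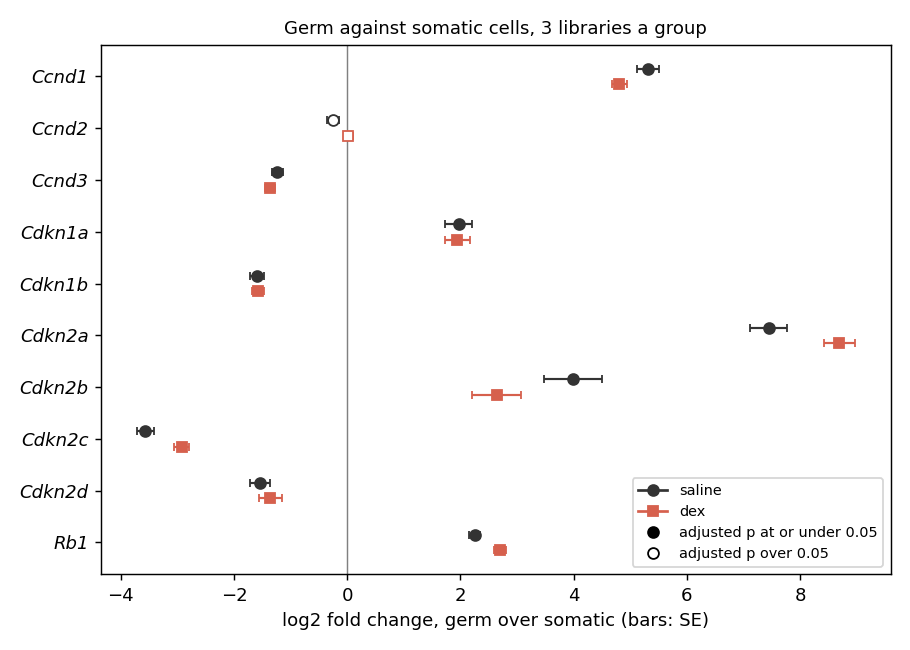
Log2 fold change of germ over somatic cells for each member, in saline (circles) and in dex (squares), with SE from edgeR, 3 libraries a group. Filled symbols have an adjusted p at or under 0.05, and Ccnd2 is the 1 member with open symbols, at -0.25 and 0.02.

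Partners of these genes were taken from lists. Of all genes tested, 39.8% were called higher and 36.7% lower in germ cells in saline, and 40.5% and 35.7% in dex. Of 22 genes that act with the members in G1 (kinases, cyclins E, E2F and DP factors, pocket proteins and their regulators), 12 were higher and 6 lower in germ cells in saline, and 13 and 6 in dex. The largest saline differences were a lower Rbl2, encoding the pocket protein p130 typical of resting cells, at -3.06 ± 0.170, and a higher Fbxw7, which targets cyclin E for degradation, at 1.68 ± 0.107. Tfdp1, the dimer partner of E2F factors, was at 1.48 ± 0.0862 and Ccne1, encoding cyclin E1, at 1.38 ± 0.218, while Cdkn1c (p57) was at -0.82 ± 0.150 and Cdk6 at -0.82 ± 0.143. In dex, Rbl2 was at -2.92, Cdkn1c at -1.79 and E2f4 at -0.86, and Fbxw7 at 1.80, Ccne1 at 1.63 and Ccne2 at 1.55.

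Of 25 S and M phase genes, 17 were higher and 4 lower in germ cells in saline, and 17 and 3 in dex. The shares over all genes were 39.8% and 36.7% in saline, and 40.5% and 35.7% in dex. Cenpf (1.56), Ccnb1 (1.56) and the replication helicase gene Mcm2 (1.55) led the higher ones in saline, whereas Cdk1, the kinase of mitosis, was lower at -1.27 ± 0.0859, as were Tyms (-0.84) and Birc5 (-0.50). In dex, Bub1 was at 1.78, Mcm2 at 1.65 and Cenpf at 1.59, and Cdk1 at -1.27, Tyms at -1.23 and Birc5 at -0.43.

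Of 17 p53 target genes, 7 were higher and 8 lower in saline, and 8 and 8 in dex. Beside these and the Polycomb counts below stand the same shares of all genes (39.8% and 36.7% in saline, 40.5% and 35.7% in dex). Pmaip1, encoding the pro-apoptotic protein NOXA, was at 6.58 ± 0.268, Trp53inp1 at 3.08 ± 0.140 and Aen at 2.28 ± 0.134 in saline, while Btg2 was at -2.73 ± 0.240, Fas at -2.56 ± 0.577 and Eda2r at -0.94 ± 0.231. In dex, Pmaip1 was at 7.27, Trp53inp1 at 2.88 and Aen at 2.46, and Fas at -4.51, Btg2 at -3.52 and Bbc3 at -1.95. Of 12 genes of Polycomb complexes, which are known to silence the Cdkn2a locus in many cell types, 8 were higher and 3 lower in germ cells in saline, and 8 and 4 in dex. Cbx7 (2.92 ± 0.172), Jarid2 (2.55 ± 0.0773) and Bmi1 (2.08 ± 0.102) were higher in saline, and Ring1 (-3.39 ± 0.133), Pcgf2 (-1.30 ± 0.118) and Ezh2 (-0.61 ± 0.0822) were lower. In dex, Jarid2 was at 2.59, Bmi1 at 2.47 and Cbx7 at 2.29, and Ring1 at -3.20, Pcgf2 at -1.51 and Cbx8 at -0.60.

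In germ cells, dex was set against saline to ask whether treatment moved these genes in prospermatogonia. Ccnd1 fell, to 0.656 times its saline level, and was the 1 member of 10 called, where edgeR called 1.25% of all genes tested (0.739% as higher and 0.507% as lower). Its CPM was 159, 162 and 163 in saline and 96.3, 109 and 113 in dex, with a log2 change of -0.61 ± 0.0776 (adjusted p = 0.0014), and it ranked 18 by p among 18550 genes. The fall was called in each of 6 fits that left out 1 library, at -0.66 to -0.55, and with DESeq2. On log2 FPKM with limma it was at -0.59 with an adjusted p of 0.061.

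Markers of some other cell types moved alongside the fall of Ccnd1 in germ libraries. The summed CPM of Sertoli cell markers was 35.1 to 44.5 with dex and 55.7 to 63.2 with saline. All 8 of them were below 0 in log2 fold change and 1, Inha, was called (1.25% of all genes were), and none was at 0 counts. Erythroid markers summed to 7.53 to 9.07 CPM with saline and 4.33 to 6.89 CPM with dex, with 3 of 3 tested below 0, and Leydig markers to 10.3 to 13.8 and 5.50 to 10.8 CPM, with 5 of 5 tested below 0, and 0 were called in either list. The Leydig sums overlapped between the treatments, as did the endothelial, stromal and macrophage sums, with 0 called. Of the 6 peritubular and stromal markers, 5 were above 0 in log2 fold change, with a median of 0.14. Endothelial markers were 3 above and 3 below 0, and the 2 macrophage markers tested were below 0. The part of these shifts in the value of Ccnd1 was not tested. Ccnd1 itself was at 3.02 to 5.93 CPM in the somatic libraries, where Sertoli markers were highest, and at 96.3 CPM or more in germ libraries. The germ cell markers summed to 2679 to 2899 CPM with dex and 2673 to 2800 CPM with saline, with 0 of 10 called. Oraov1 lies on the opposite strand and overlaps Ccnd1 over 1771 bases. It had 360 to 584 counts in every library, which is more than Ccnd1 itself had in somatic libraries, and the strand setting of the counting is not given in the sources used here.

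The other 9 members were not called in germ cells. Ccnd3 was closest, at a log2 fold change of 0.22 ± 0.0856 (adjusted p = 0.23), with 134, 137 and 164 CPM in saline and 166, 164 and 181 CPM in dex. Cdkn1a was at -0.22 ± 0.225, Cdkn2a at -0.16 ± 0.121, Cdkn2b at 0.16 ± 0.260, Cdkn2c at 0.16 ± 0.192 and Cdkn1b at 0.10 ± 0.132. Ccnd2 at -0.07 ± 0.0721, Cdkn2d at -0.07 ± 0.214 and Rb1 at 0.05 ± 0.0785 were nearest to 0. Their adjusted p-values were 0.59 or more, and all these dex libraries overlapped the saline libraries in CPM. Ccnd1 was the 1 member without overlap in CPM, where 20.0% of all genes had none.

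Among somatic libraries, of 9 members tested, since Cdkn2a fell under the filter on low counts, Ccnd3 rose and Cdkn2c fell, where edgeR called 3.91% of all genes tested (2.74% higher and 1.17% lower). Ccnd3 was at 352, 336 and 331 CPM with saline and at 409, 476 and 430 CPM with dex, and its fold change on the log2 scale was 0.40 ± 0.0832 (adjusted p = 0.013). Cdkn2c was at 66.4, 83.7 and 69.3 CPM with saline and at 56.4, 47.6 and 53.7 CPM with dex, and its fold change on the log2 scale was -0.44 ± 0.106 (adjusted p = 0.027). The groups did not overlap in either gene.

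Both calls depended on single libraries. Without dex somatic replicate 2 the adjusted p of Ccnd3 was 0.060, and without saline somatic replicate 3 it was 0.064. That of Cdkn2c was 0.12 without dex somatic replicate 2, 0.076 without dex somatic replicate 3, 0.10 without saline somatic replicate 2 and 0.078 without saline somatic replicate 3. On log2(FPKM + 0.1) with limma the adjusted p was 0.066 for Ccnd3 and 0.076 for Cdkn2c. Bysl, on the opposite strand, overlaps Ccnd3 over 361 bases and had 304 to 1213 counts per library, and no annotated gene overlaps Cdkn2c.

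Ccnd2 and Rb1 were lower with dex in every somatic library without reaching the threshold. Ccnd2 was at 521, 669 and 506 CPM with saline and at 467, 423 and 455 CPM with dex, and its log2 change was -0.30 ± 0.0902 (adjusted p = 0.084). It was called with DESeq2 (adjusted p = 0.018) and when scaled by library totals alone (adjusted p = 0.036). Rb1 was at 28.3, 27.9 and 26.5 CPM with saline and at 19.0, 21.8 and 21.9 CPM with dex, and its log2 change was -0.37 ± 0.128 (adjusted p = 0.15). Rcbtb2, which overlaps Rb1 on the opposite strand over 24171 bases, had 10.4% to 276% of the counts of Rb1. Lpar6, also on the opposite strand, overlaps Rb1 over 5400 bases and had 0.104% to 93.7% of the counts of Rb1.

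Cdkn1a was at 5.94, 6.24 and 7.29 CPM with saline and at 5.84, 5.68 and 5.55 CPM with dex, and its log2 change was -0.16 ± 0.241 (adjusted p = 0.81). Together, 5 of the 9 members tested had no overlap in CPM, where 21.4% of all genes had none. Cdkn2b had the largest value, 1.52 ± 0.794, with an adjusted p of 0.38 at 5 to 31 counts per library. Cdkn2d was at -0.22 ± 0.137, Cdkn1b at 0.11 ± 0.0904 and Ccnd1 at -0.04 ± 0.343, with adjusted p-values of 0.48 or more.

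**Figure D4:**
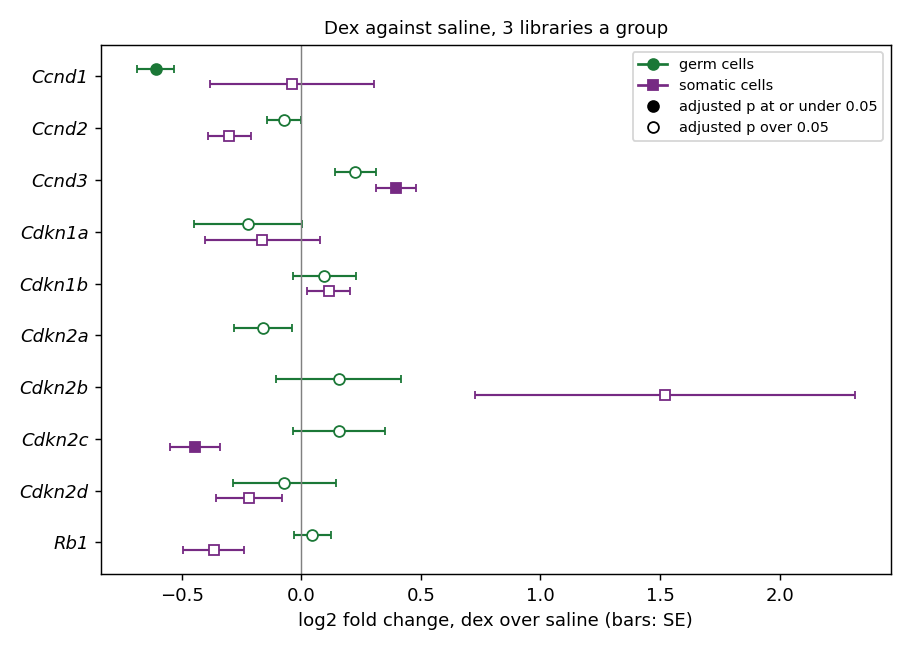
Log2 fold change of dex over saline for each member in germ cells (circles) and somatic cells (squares), with SE from edgeR, 3 libraries a group. Filled symbols have an adjusted p at or under 0.05: Ccnd1 in germ cells at -0.61, and Ccnd3 at 0.40 and Cdkn2c at -0.44 in somatic cells. Cdkn2a was not tested in somatic cells.

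Markers of cell types in the somatic mixture moved with dex as well. Of all genes tested there, 2.74% were called higher and 1.17% lower. The 6 peritubular and stromal markers summed to 2408 to 3039 CPM with saline and 3469 to 3969 CPM with dex, with 3 called higher (Dcn, Pdgfra and Acta2). The 6 macrophage markers summed to 40.7 to 67.5 CPM with saline and 17.2 to 24.1 CPM with dex, with 2 called lower (Lyz2 and Csf1r). The 6 erythroid markers summed to 256 to 394 CPM with saline and 85.3 to 299 CPM with dex, with 2 of the 4 tested called lower, and Hba-a2 at 0 to 2 counts in saline and 0 in dex. Sertoli markers summed to 4371 to 4784 CPM with saline and 4037 to 4647 CPM with dex, with 0 of 8 called. The 6 Leydig markers summed to 397 to 526 CPM with saline and 381 to 472 CPM with dex, with 1 called lower (Star). The 6 endothelial markers summed to 250 to 285 CPM and 249 to 325 CPM, with 0 called, although 5 of 6 had a log2 fold change below 0, with a median of -0.47, and 3 an unadjusted p under 0.05. The part of these shifts in the values of Ccnd3, Cdkn2c, Ccnd2 and Rb1 was not tested.

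Among the 22 G1 partners, 0 were called with dex in germ cells by edgeR, with 5 at an unadjusted p under 0.05, and their median log2 fold change was -0.04 against -0.0027 over all genes tested. Of all 18550 genes tested in germ cells, edgeR called 1.25%, and 2736 had an unadjusted p under 0.05. In somatic cells 2 partners rose and 1 fell, where 2.74% of all genes were called higher and 1.17% lower. Of the 22 partners, 10 had an unadjusted p under 0.05 in somatic cells, as did 2701 of all 16766 genes. The median there was -0.13 against -0.0066 over all genes. Cdkn1c, the CIP/KIP gene encoding p57 that is not among the members, rose from 52.7, 68.9 and 46.5 CPM to 105, 114 and 125 CPM, and its log2 change was 1.07 ± 0.118 (adjusted p = 8.0e-05). It was called in all 6 fits that left out 1 library and in all other alternatives. E2f1, the activating E2F factor, rose by 0.37 ± 0.0908 (adjusted p = 0.033), and E2f6, a repressive E2F factor, fell by 0.36 ± 0.0818 (adjusted p = 0.019). The call of E2f1 was lost in 6 of 6 fits that left out 1 library and that of E2f6 in 5 of 6, with directions kept (0.31 to 0.42 and -0.39 to -0.34).

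The 25 S and M phase genes all had a log2 fold change below 0 in germ cells. Their median was -0.23, against -0.0027 over all genes tested. In somatic cells 23 of 25 were below 0, with a median of -0.20 against -0.0066 over all genes. At an unadjusted p under 0.05 were 14 in germ cells (2736 of all 18550 genes) and 12 in somatic cells (2701 of 16766). In germ cells 1 was called lower (0.507% of all genes were), Mki67, a marker of cycling cells, at -0.44 ± 0.0997 (adjusted p = 0.048). In somatic cells 2 were called lower, where 1.17% of all genes were. These were Ccna2, encoding cyclin A2, at -0.35 ± 0.0858 (adjusted p = 0.031) and the topoisomerase gene Top2a at -0.30 ± 0.0762 (adjusted p = 0.037). Each of these calls was lost in most fits that left out 1 library (4 of 6 for Mki67, 6 of 6 for Ccna2 and 5 of 6 for Top2a), with direction kept. Of the p53 target genes, edgeR called 0 of 16 tested in germ cells (4 at an unadjusted p under 0.05) and 0 of 17 in somatic cells (5). It called 1.25% of all genes in germ cells and 3.91% in somatic cells. At an unadjusted p under 0.05 were 2736 of 18550 and 2701 of 16766 genes, as above. Of the 12 Polycomb genes it called 0 in either population (1 and 2 at an unadjusted p under 0.05).

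**Figure D5:**
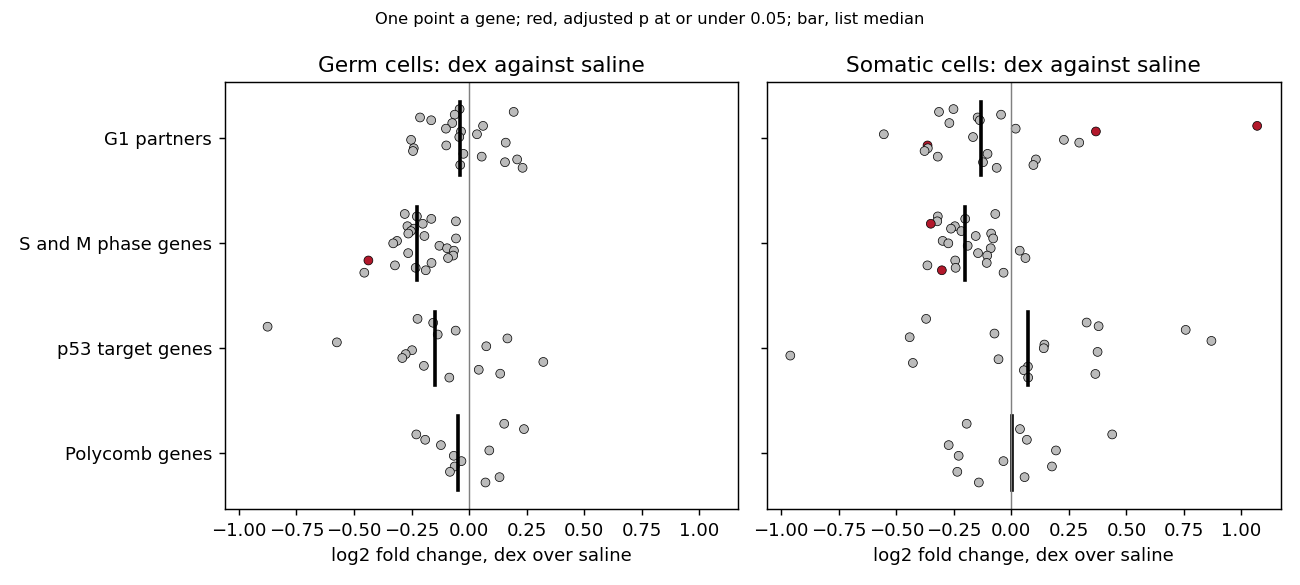
Log2 fold change of dex over saline for the genes of 4 lists in germ cells (left) and somatic cells (right), 1 point a gene. Red points have an adjusted p at or under 0.05, and black bars are list medians. Of the 25 S and M phase genes, 25 lie below 0 in germ and 23 in somatic cells, with medians of -0.23 and -0.20, and Cdkn1c is the red point at 1.07.

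Whether dex acted differently in germ and somatic cells was tested over all 12 libraries as the effect in germ minus that in somatic cells. edgeR called 0 of the 10 members, where it called 0.827% of all genes, and 2 members had an unadjusted p under 0.05. These were Rb1, at 0.45 ± 0.128 (adjusted p = 0.12), and Cdkn2c, at 0.64 ± 0.193 (adjusted p = 0.14), and both were called with DESeq2 (adjusted p = 0.043 and 0.045), while limma on FPKM called neither. The fall of Ccnd1 in germ cells was thus not shown to differ from its value in somatic cells, at -0.51 ± 0.256 (adjusted p = 0.41). That value moved to -0.91 (adjusted p = 0.023) without saline somatic replicate 2, the library with 135 counts of Ccnd1 and 21 of Cdkn2a. Ccnd3 was at -0.14 ± 0.123 (adjusted p = 0.71) and Ccnd2 at 0.27 ± 0.139 (adjusted p = 0.43). Cdkn2a was at 1.25 ± 0.740 (adjusted p = 0.51) and at -0.22 without saline somatic replicate 2.

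Likeness to other genes was measured as the Pearson correlation of log2 CPM over the 12 libraries with each of 16038 protein-coding genes, a description in which the points share the split into germ and somatic cells. Nearest to Ccnd1 were the mismatch repair gene Msh6 (r = 0.998), Rcan3 (0.998) and Cox8c (0.997), and nearest to Cdkn2a were Ina (0.999), Wnt3 (0.998) and Sfmbt1 (0.998). Rb1 was nearest to Ctdp1 (0.998), Rftn1 (0.998) and Tex13b (0.998), and Cdkn1a to Serp2 (0.990), Wnt3a (0.989) and Otx2 (0.989). On the somatic side, Ccnd3 was nearest to the linker histone gene Hist1h1c (0.995), Pdk4 (0.995) and Kctd17 (0.994), and Cdkn2c to Fam126a (0.998), Elovl2 (0.997) and Lsr (0.997). Cdkn1b was nearest to Cavin1 (0.996), Tns1 (0.996) and Ltbr (0.995), and Cdkn2d to Fam222a (0.994), D17H6S53E (0.983) and Pgpep1 (0.982). Ccnd2, which did not follow the split, was nearest to Bnip2 (0.942), Epha2 (0.902) and Paip2b (0.861).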

How the data were processed

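RNA was measured in 12 libraries of sorted testis cells, grouped by their labels. According to the methods and the submitters' processing notes, the authors selected mRNA, aligned paired reads to mm10 with HISAT2 2.0.5 and counted them per gene with featureCounts 1.5.0-p3. The deposited count table holds raw counts, and the deposited FPKM values are those counts scaled by the authors to gene length and depth. Gene coordinates of all 10 members equal those of GENCODE M21 on GRCm38. Deposited tables of the authors' own DESeq2 1.20.0 comparisons (log2 fold changes and p-values) were not used.

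Counts were tested with edgeR 4.0.16 in R 4.3.3 (quasi-likelihood test, TMM, filterByExpr at a minimum count of 10), on the 6 libraries of each comparison, or on all 12 for the difference of dex effects. P-values were adjusted over all genes tested, with a threshold of 0.05. SE is the log2 fold change divided by the square root of F. CPM used TMM over the genes kept among all 12 libraries, and log2 CPM a prior count of 2. Alternatives were DESeq2 1.42.0, library totals, RLE factors, other filters (a minimum of 1 count in all, or 10 counts in every library), the replicate block, limma 3.58.1 on log2(FPKM + 0.1) or log2(FPKM + 1), and leaving out each library. The fits were also run on counts simulated from edgeR's own model and dispersions. Such a run checks the code and cannot show that the model holds for these libraries. As the libraries are pools of litters, p-values measure the spread between such pools.

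The members and lists were chosen with earlier results of these data known. By rule, the text names the 10 members, called genes of the 4 lists (at most 5 in each direction for dex, and the 3 largest in each direction for germ against somatic cells), the 3 genes most like each member with a mean log2 CPM of at least 2, and 8 label checks (Ddx4, Dazl, Amh, Sox9, Star, Tsc22d3, Per1 and Klf9). Dazl, Amh and Sox9 enter only through the sums and counts of their marker lists. The comparisons share groups: each group enters 1 dex comparison, 1 comparison of cell types and the test over all 12 libraries. Their values are thus not independent, and no correlation between comparisons was computed. Promoters are those of RefSeq.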

Additional observations from a re-analysis of the deposited data

Results flagged for a closer look

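The dex effect differed between germ and somatic cells, by the interaction term of edgeR over all 12 libraries, for 4 genes, none of them a member. They come from the members, the 4 lists and the 8 label checks only, and 0.827% of all genes were called. Of all 11 glucocorticoid response genes tested, Tsc22d3 and Per1 included, 1 was called with a difference above 0 and 6 with a difference below 0. Of 6 endothelial markers, 1 was called, above 0. Cdkn1c (p57) had a germ minus somatic difference of -0.97 ± 0.199 in log2 fold change (adjusted p = 0.032), with 0.06 in germ cells and 1.07 in somatic cells. The call was lost in 8 of 12 fits that left out 1 library, where the difference lay between -1.13 and -0.84, and with limma on log2(FPKM + 0.1). Tsc22d3, a glucocorticoid response gene, had a difference of -1.37 ± 0.125 (adjusted p = 3.2e-05), from -0.37 in germ cells and 1.03 in somatic cells, and kept its call in all 12 such fits. Per1 had a difference of -0.60 ± 0.122 (adjusted p = 0.028), lost in 9 of 12 fits. Ddx4, a germ cell gene, had a difference of 1.28 ± 0.284 (adjusted p = 0.046), lost in 10 of 12 fits, and rests on 8 to 34 counts per somatic library. Whether background RNA of germ cells moves with the Ddx4 value was not tested.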

How the results depend on the processing

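Over the members, 689 of 739 alternative values kept direction and side of the threshold, 12 lost and 12 gained a call, and 26 changed sign, none of the latter in a called member. With dex in germ cells the 231 calls became 713 with DESeq2, 767 without a filter, 6 and 12 with limma on log2(FPKM + 0.1) and log2(FPKM + 1), where members called fell to 0, and 49 to 265 without 1 library. In somatic cells the 655 calls (2 members) became 1061 (3 members) without a filter. They became 251 and 281 with limma, with 0 members called, and 354 to 547 without 1 library, with 0 to 2 members. For the difference of dex effects the 170 calls became 642 with DESeq2 (2 members), 706 without a filter, 262 with at least 10 counts in every library, 57 with limma on log2(FPKM + 0.1) and 149 on log2(FPKM + 1), and 79 to 172 without 1 library (0 to 1 members). For germ against somatic cells they stayed within 1.5 times.

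Same-numbered libraries correlated at -0.088 to 0.044 in their deviations from group means, and libraries with different numbers at -0.084 to 0.135. Between germ and somatic cells in saline, same-numbered pairs were at 0.037 to 0.044 and pairs with different numbers at -0.028 to -0.0088. With dex, same-numbered pairs were at -0.016 to -0.0030. The labels give only a replicate number, and correlations this small cannot settle whether same-numbered libraries share pools. With the replicate block, the calls became 65 in germ cells, 669 in somatic cells, 14157 (saline) and 13653 (dex) for germ against somatic cells, and 104 for the difference of effects. No member changed its call under the block.

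Library totals in place of TMM moved the median log2 fold change of germ over somatic cells from 0.07 to 0.21 in saline and from 0.12 to 0.30 in dex, and the share of higher calls from 59.3% to 69.3% in germ cells, from 70.1% to 53.5% in somatic cells and from 50.0% to 67.0% for the difference of effects.

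The sign changes were all of uncalled values. In germ cells with dex, leaving out 1 library gave Cdkn2d -0.24 to 0.11, Rb1 -0.0035 to 0.098, Cdkn2b -0.061 to 0.53 and Cdkn1a -0.49 to 0.089. In somatic cells Ccnd1 was at 0.016 with the block, at 0.019 with limma on log2(FPKM + 0.1), and at -0.19 to 0.32 without 1 library. For Ccnd2 in germ against somatic cells with dex the range was -0.028 to 0.11. For the difference of effects, Cdkn1b was at -0.0013 with DESeq2, -0.0013 with RLE factors, -0.00039 with limma on log2(FPKM + 1) and -0.098 to 0.16 without 1 library. Cdkn1a was at 0.021 with library totals and at -0.29 to 0.28 without 1 library, and Cdkn2a, at 1.25 with all libraries, at -0.22 to 1.65 without 1 library, the low value being that without saline somatic replicate 2. The cause of these shifts was not tested. Depth limits Cdkn2a and Cdkn2b in somatic cells, at 2 to 31 counts per library.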
